A study of Mus musculus with 4 samples.

Results

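The genes described here are those of the major histocompatibility complex (MHC) class I presentation pathway and of the immunoproteasome in intestinal stem cells (ISCs): H2-K1, H2-D1, B2m, Tap1, Tap2, Tapbp, Psmb8, Psmb9, Psmb10 and Nlrc5. They were chosen by gene symbol, and each of the 10 was found once among the 52459 genes of the count table. The data were 4 RNA sequencing libraries, 2 from ISCs of 2-month-old mice (ISC_2mth) and 2 from ISCs of 22-month-old mice (ISC_22mth), each made from a pool of 5 animals. All mice were C57/Bl6 females with the genotype WT, with no treatment named, so both ages share every label except age. The cells were sorted from small intestinal crypts as EPCAM+, CD166+, CD44high, EPHB2high, CD24med and GRP78low cells, after CD45- and CD31- gating that leaves out leukocytes and endothelial cells, and a pool hides the differences between its animals. The comparison asks how the RNA of these genes differed between young and old ISCs.

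Class I molecules display peptides from the inside of a cell to cytotoxic T cells. The proteasome cuts proteins into peptides, the TAP transporter carries these into the endoplasmic reticulum, and tapasin holds an empty class I molecule next to TAP until a peptide binds. A class I molecule is a heavy chain, encoded here by H2-K1 and H2-D1, paired with the light chain beta-2-microglobulin from B2m. Interferon gamma is known to raise the genes of the whole pathway and to replace the 3 catalytic proteasome subunits with Psmb8, Psmb9 and Psmb10, which change the peptides that are cut. Nlrc5 is a transcriptional coactivator of class I genes, and in the gut class I genes are expressed by epithelial cells as well as by immune cells.

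Of the 10 genes, 7 lie on chromosome 17 in GRCm38, B2m lies on chromosome 2, and Psmb10 and Nlrc5 lie on chromosome 8. The classical heavy chain genes are H2-K1 at chr17:33996017-34000347 on the minus strand and H2-D1 at chr17:35262730-35267499 on the plus strand. Psmb9 (chr17:34181987-34187764, minus strand), Tap1 (chr17:34187553-34197225), Psmb8 (chr17:34197721-34201454) and Tap2 (chr17:34203527-34216321) follow one another in the class II region of the complex, and Tapbp lies at chr17:33915899-33929292, the last 4 on the plus strand. B2m is at chr2:122147686-122153083 on the plus strand, Psmb10 at chr8:105935735-105938444 on the minus strand and Nlrc5 at chr8:94434356-94527272 on the plus strand. Reads were counted in exons, whose summed length ran from 860 bases for B2m to 8493 bases for Nlrc5.

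The promoters of these genes are shown first, because class I genes are classically controlled through a short stretch just upstream of the start site that holds sites for nuclear factor kappa B (NF-kB), interferon regulatory factors and the factors that recruit Nlrc5. RefSeq promoter windows (GRCm38.p6, 250 bases before to 50 after the start site) were found for 8 of the 10 genes, in 9 windows, 2 of them for H2-K1 from neighbouring start sites. Tap2 and Nlrc5 had no entry. The stretches below run 5' to 3' on the gene's strand and end at the base before the start site, or earlier, and capitals mark each motif match on either strand.
H2-K1, minus strand, chr17:34000349-34000468: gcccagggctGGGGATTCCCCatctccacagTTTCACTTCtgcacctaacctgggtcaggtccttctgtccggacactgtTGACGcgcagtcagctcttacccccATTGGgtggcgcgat
H2-D1, plus strand, chr17:35262913-35263055: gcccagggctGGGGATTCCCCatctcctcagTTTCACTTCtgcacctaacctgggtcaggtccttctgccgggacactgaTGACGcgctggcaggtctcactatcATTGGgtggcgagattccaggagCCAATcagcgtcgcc
B2m, plus strand, chr2:122147538-122147648: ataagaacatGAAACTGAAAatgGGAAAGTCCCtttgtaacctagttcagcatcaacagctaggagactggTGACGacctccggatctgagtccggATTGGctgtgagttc
Tap1 and Psmb9, plus strand, chr17:34187331-34187484: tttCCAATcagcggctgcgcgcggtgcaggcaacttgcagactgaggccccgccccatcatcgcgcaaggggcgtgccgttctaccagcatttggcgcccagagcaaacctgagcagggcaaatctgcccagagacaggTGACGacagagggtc
The searched letters were GAAA followed by any 2 bases and a second GAAA (the interferon-stimulated response element, ISRE), GAANNGAAA (a shorter ISRE-like form), TTCNNNGAA (the gamma-activated site, GAS), TGACG (the half-site of the cyclic AMP response element) and CCAAT, all on both strands, and the NF-kB consensus. H2-K1 and H2-D1 held the same series in the same order: NF-kB (2 overlapping matches), ISRE-like, TGACG and CCAAT. B2m held the full ISRE, which overlaps no other match, followed by NF-kB, TGACG and CCAAT. Of 32851 promoter windows of the same length, 3.44% held the ISRE, 7.52% the ISRE-like form, 8.46% NF-kB, 20.8% TGACG, 37.4% CCAAT and 8.3% GAS.

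The H2-K1 and H2-D1 windows were identical at 211 of 239 aligned bases (88.3%). Psmb9 and Tap1 are transcribed away from each other from start sites 226 bp apart, so their windows share 275 bases, and the stretch printed for Tap1 is also the Psmb9 promoter read on the other strand. It held TGACG and CCAAT matches only. Of the windows not printed, Tapbp held CCAAT, Psmb8 held 1 GAS match, TTCCCAGAA, 97 bases before its start site, and Psmb10 held none of the 6 motifs. A match is a description of letters and says nothing of whether a factor binds there in these cells.

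The libraries held between 11662654 and 15975698 counts on genes, of which between 3852178 and 4593004 lay outside the mitochondrially encoded genes, which took 62.6% and 65.7% of the counts in ISC_2mth and 73.8% and 72.9% in ISC_22mth. Levels are given as CPM, which are counts divided by the library's TMM-adjusted total, and 3 counts correspond to between 0.199 and 0.246 CPM. The test took in 13692 genes, those that in 1 pool or more exceeded both 5 reads and 1 CPM of the unadjusted total. It was made with edgeR's quasi-likelihood test, with false discovery rates (FDR) over all of them. The cells expressed the sort marker Epcam (between 6241 and 7483 counts) and the stem cell marker Lgr5 (3599 and 3236 counts in ISC_2mth, 2758 and 2518 in ISC_22mth, FDR 0.52), and all 10 stem cell markers were tested. In CPM, Lgr5, Sox9, Axin2, Rnf43, Znrf3 and Tnfrsf19 were lower in both old pools, as in Axin2 with 149 and 128 against 102 and 98.6 CPM. Ascl2 and Slc12a2 were higher in both, and Olfm4 and Smoc2 overlapped. The pan-leukocyte gene Ptprc had 0, 0, 2 and 0 counts and the T cell gene Cd3e 1, 0, 1 and 1. Pools of 1 age differed by more than sampling noise, and p-values measure only the spread between these pools.

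None of the 10 genes passed an FDR of 0.05 in edgeR's quasi-likelihood test, against 2.26% of all genes tested. At an unadjusted p under 0.05, 2 of the 10 were higher in old ISCs, B2m and Psmb9, a share near the 16.9% of all genes that passed in either direction. Other tools called 1 gene with limma voom and sample quality weights (B2m, FDR 0.02), 1 with edgeR's likelihood ratio test (Psmb9, FDR 0.044) and 0 with DESeq2. The fitted log2 fold change, old over young, was above 0 for 9 of the 10, with a median of 0.38 beside -0.0049 for all genes tested. The 2 old pools were the 2 highest for 5 genes (H2-D1, B2m, Tap2, Psmb9 and Nlrc5), as for 24.0% of all genes. They were the 2 lowest for 0 of the 10, beside 23.6% of all genes, and the groups overlapped for the other 5, beside 52.4%. Nlrc5 entered the test only through 1 old pool in which it was high, and without it 8 of 9 genes were above 0 with a median of 0.34, and the old pools were the 2 highest for 4. These counts and the median depend on the scaling: scaled by total counts alone the median of all genes was -0.50 and that of the 10 genes -0.10. In such bulk libraries fewer cells of a type and less RNA per cell cannot be told apart.

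**Figure D1:**
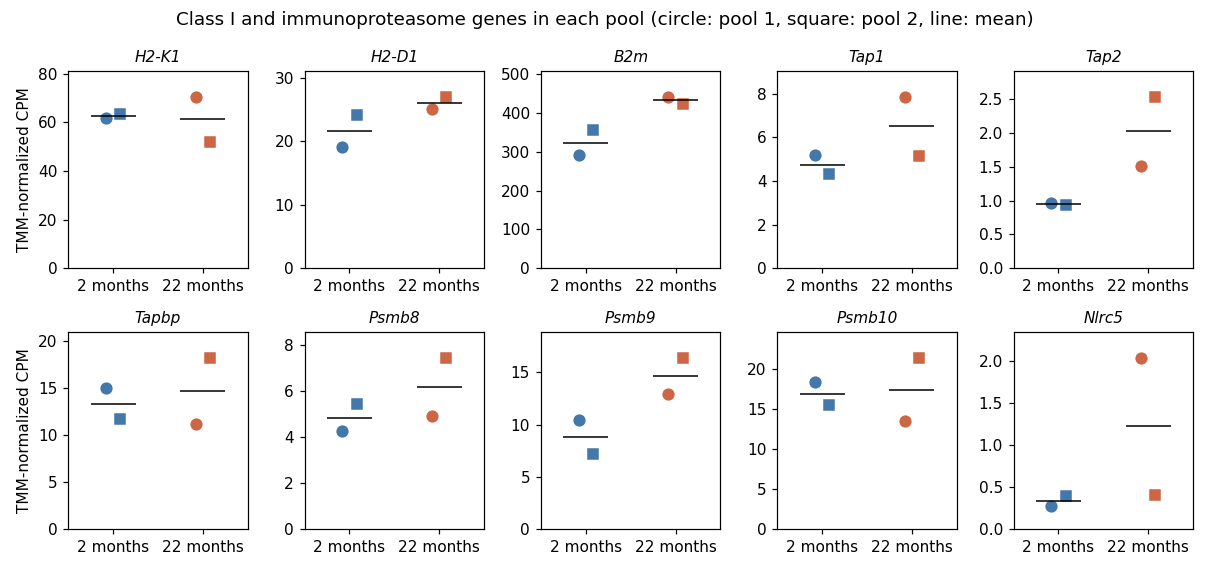
TMM-scaled CPM of each of the 10 genes in the 4 pools, with 1 panel per gene on its own linear axis from 0, blue ISC_2mth and orange ISC_22mth points for pools and a line for each group mean. B2m, H2-D1, Tap2, Psmb9 and Nlrc5 have both ISC_22mth pools above both ISC_2mth pools, and the high mean of Nlrc5 comes from 1 pool at 2.04 CPM.

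Of the heavy chains, H2-K1, the K-locus heavy chain, had 61.9 and 63.5 CPM in ISC_2mth and 70.6 and 51.9 CPM in ISC_22mth. The old pools lay on either side of the young ones. Group means were 62.7 ± 1.13 (SD, n = 2) and 61.3 ± 13.2 CPM, the log2 fold change was -0.03 (SE 0.14, FDR 0.94), and the 95% interval of the fold was 0.795 to 1.20. Scaled by total counts alone, where the median of all genes was -0.50, the log2 fold change was -0.53 (FDR 0.01), and without ISC_22mth replicate 2 it was 0.17. H2-D1, the D-locus heavy chain, had 19.1 and 24.1 CPM in ISC_2mth and 25.1 and 27.0 CPM in ISC_22mth. Both old pools were the higher ones, by a narrow gap between the second young and the first old pool, with a fold of 1.21 (0.955 to 1.53, FDR 0.42), a log2 fold change of 0.27 that ran from 0.12 without ISC_2mth replicate 1 to 0.44 without ISC_2mth replicate 2. Part of these counts is uncertain, because 9.63% of the 50-nt stretches of H2-K1 transcripts and 12.8% of those of H2-D1 also occur in transcripts of other genes, most often H2-Q10 for H2-K1 and H2-Q1 for H2-D1.

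B2m, the light chain shared by all classical class I molecules and several class I-like ones, had 4212 and 5366 counts in ISC_2mth and 5842 and 5148 in ISC_22mth, or 290.6, 356, 442 and 422 CPM. Each old pool was above each young one, and the young pools differed from each other by nearly as much as the second young pool from the second old one. The group means were 323 ± 45.9 and 432 ± 14.5 CPM (SD, n = 2), a fold of 1.34 (1.13 to 1.58) with an FDR of 0.068. None of its 50-nt stretches occurs in another gene. The value turned on 1 library: without ISC_2mth replicate 1 the log2 fold change was 0.28 (FDR 0.59), whereas it was 0.57 (FDR 0.036), 0.39 (FDR 0.034) and 0.45 (FDR 0.0072) without ISC_2mth replicate 2, ISC_22mth replicate 1 and ISC_22mth replicate 2. With offsets for GC and length it was 0.25 (FDR 0.36), and scaled by total counts alone -0.07. Summed enterocyte markers were also higher in both old pools, at 326 and 433 CPM in ISC_2mth and 818 and 663 CPM in ISC_22mth, with all 8 markers tested. Of these sums Fabp2 gave 161, 264, 407 and 401 CPM. Pools of the 2 ages overlapped for Apoa1, Apoa4 and Lct, and the other markers were higher in both old pools. The part of these markers in the B2m values was not tested.

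Ratios of counts within a library do not depend on how libraries are scaled. H2-K1 had 0.213 and 0.179 counts for each B2m count in ISC_2mth and 0.160 and 0.123 in ISC_22mth. The old pools were the 2 lowest, with a difference of -0.48 on the log2 scale. For H2-D1 the ratios to B2m were 0.0658, 0.0676, 0.0568 and 0.0641 in the same order, also lower in both old pools, with a difference of -0.14. Counting errors of the H2-D1 ratio were between 0.0782 and 0.0895 on the log2 scale per pool. Its nearest young and old pools, at -3.93 and -3.96 on that scale, lay closer together than 1 such error. The differences of -0.48 and -0.14 depend on the correction of GC content and length: with those offsets they were -0.22 and 0.03. They also moved with single libraries, from -0.66 without ISC_22mth replicate 1 to -0.29 without ISC_22mth replicate 2 for H2-K1, and from -0.23 without ISC_22mth replicate 2 to -0.06 without ISC_22mth replicate 1 for H2-D1. The ratio of H2-K1 to H2-D1 was 3.24 and 2.64 in ISC_2mth and 2.81 and 1.92 in ISC_22mth, which overlap. No test was run on the ratios, since with 2 pools per age an exact two-sided permutation test gives no p below 0.333.

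Tap1 and Tap2 encode the paired subunits of the peptide transporter. Tap1 had 5.17 and 4.31 CPM in ISC_2mth and 7.87 and 5.16 CPM in ISC_22mth, so the second old pool lay within the young range and only the first stood above it. The fold was 1.38 (0.918 to 2.07, FDR 0.43), a log2 fold change of 0.46 that ran from 0.12 without ISC_22mth replicate 1 to 0.73 without ISC_22mth replicate 2. Tap2 had 14 counts in each young pool and 20 and 31 in the old pools, or 0.966, 0.928, 1.51 and 2.54 CPM. Both old pools were higher, and the fold of 2.12 has an interval from 0.934 to 4.83 (FDR 0.35). No difference was thus detected with these few counts and 2 pools per age. Its log2 fold change of 1.09 ran from 0.67 without ISC_22mth replicate 2 to 1.42 without ISC_22mth replicate 1. The tapasin gene Tapbp had 15.0 and 11.7 CPM in ISC_2mth and 11.1 and 18.2 CPM in ISC_22mth. Its lowest and its highest pool were both old, and the fold was 1.10 (0.796 to 1.52, FDR 0.81). The log2 fold change of Tapbp, 0.14, ran from -0.26 without ISC_22mth replicate 2 to 0.45 without ISC_22mth replicate 1.

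The same 2 old pools thus took opposite orders for the transporter's parts: the first was the higher one for Tap1 and the lower one for Tap2. Of the 50-nt stretches, 3.33% of Tap1, 11.6% of Tap2 and 23.2% of Tapbp transcripts occur elsewhere. Tap1 shares 212 exonic bases with Psmb9 on the opposite strand, Tap2 shares 533 with Gm15821, and Tapbp shares 904 with Gm19412 on the opposite strand and 149 with Zbtb22 on the same strand. The strand setting of the counting was not given in the sources used here, so reads from such overlaps cannot be assigned with certainty, and those shared with Zbtb22 cannot be assigned under any strand setting.

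The immunoproteasome subunits had unlike fitted folds, and the differences between them were not tested. Psmb9, the beta1i subunit, had 151 and 109 counts in ISC_2mth and 171 and 200 in ISC_22mth, or 10.4, 7.22, 12.9 and 16.4 CPM. The old pools were the 2 highest, with means of 8.82 ± 2.26 and 14.7 ± 2.43 CPM (SD, n = 2), a fold of 1.66 (1.21 to 2.29) and an FDR of 0.09. This value also turned on single libraries, with a log2 fold change of 1.02 (FDR 0.035) without ISC_2mth replicate 1 and 0.49 (FDR 0.42) without ISC_2mth replicate 2. Without ISC_22mth replicate 1 it was 0.90 (FDR 0.0082) and without ISC_22mth replicate 2 it was 0.56 (FDR 0.19). The summed enterocyte markers (326 and 433 against 818 and 663 CPM, much of it Fabp2) were higher in the same pools, and their part was not tested.

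Psmb8, the beta5i subunit, had 4.28 and 5.43 CPM in ISC_2mth and 4.92 and 7.45 CPM in ISC_22mth. The first old pool lay between the young pools, and the fold was 1.27 (0.841 to 1.92, FDR 0.58), a log2 fold change of 0.34 that ran from 0.019 without ISC_22mth replicate 2 to 0.62 without ISC_22mth replicate 1. Psmb10, the beta2i subunit, had 18.4 and 15.4 CPM in ISC_2mth and 13.5 and 21.4 CPM in ISC_22mth. Its old pools again held the lowest and the highest value, as for Tapbp, and the fold was 1.03 (0.766 to 1.38, FDR 0.94). The log2 fold change of Psmb10, 0.04, ran from -0.32 without ISC_22mth replicate 2 to 0.34 without ISC_22mth replicate 1. Psmb8 shares 498 exonic bases with Gm20496, and 11.9% of its 50-nt stretches occur elsewhere, whereas Psmb10 shares none.

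Each inducible subunit has a constitutive counterpart whose place it takes in the 20S core: Psmb5 for Psmb8, Psmb6 for Psmb9 and Psmb7 for Psmb10. Psmb6 had 308 and 335 counts in ISC_2mth and 206 and 239 in ISC_22mth, lower in both old pools with a log2 fold change of -0.31 (FDR 0.38). The counts were 58, 68, 42 and 51 for Psmb5 (-0.21, FDR 0.79) and 82, 116, 98 and 93 for Psmb7 (0.17, FDR 0.78). None of the 3 counterparts passed an FDR of 0.05. The Psmb5 counts are the least certain of them, since 54.1% of its 50-nt stretches occur in other genes, mostly in Gm3375.

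Within each library, Psmb9 had 0.490 and 0.325 counts for each Psmb6 count in ISC_2mth and 0.830 and 0.837 in ISC_22mth. The old pools were almost equal and both above the young ones, by 1.06 on the log2 scale. The ratio of Psmb8 to Psmb5 was 1.07 and 1.21 in ISC_2mth and 1.55 and 1.78 in ISC_22mth, higher in both old pools by 0.55, with counting errors between 0.237 and 0.286 on the log2 scale per pool. Psmb10 to Psmb7 gave 3.24 and 2.01 in ISC_2mth and 1.82 and 2.81 in ISC_22mth, which overlap (-0.18), and the difference was 0.17 without ISC_2mth replicate 1, 0.14 without ISC_22mth replicate 1, -0.52 without ISC_2mth replicate 2, -0.49 without ISC_22mth replicate 2 and 0.10 with offsets for GC and length. The mean log2 ratio of the 3 pairs was 0.26 and -0.11 in ISC_2mth and 0.41 and 0.69 in ISC_22mth, a difference of 0.48 that stayed between 0.29 and 0.66 when each pool was left out in turn. The second young pool was the lowest in this mean, and the narrowest gap between the ages was that between 0.26 and 0.41. These values describe RNA and carry no test, for the reason given for the heavy chain ratios.

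**Figure D2:**
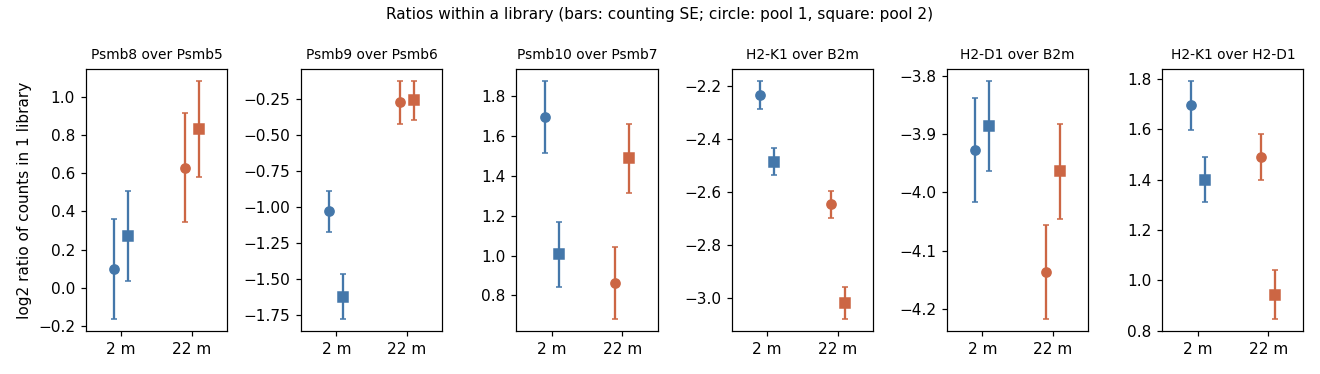
Log2 ratio of counts within each library for the 3 pairs of immunoproteasome and constitutive subunits and for H2-K1 to B2m, H2-D1 to B2m and H2-K1 to H2-D1, each panel on its own axis, with blue ISC_2mth and orange ISC_22mth pools (circle for pool 1, square for pool 2) and bars for the counting error of 1 SE. Psmb9 to Psmb6 shows the widest gap between group means (1.06), the ratios to B2m are lower in both old pools, and Psmb10 to Psmb7 and H2-K1 to H2-D1 have overlapping pools. For H2-D1 to B2m the nearest young and old pools lie closer together than 1 counting error.

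Nlrc5, the class I coactivator, was near the limit of detection, with 4 and 6 counts in ISC_2mth and 27 and 5 in ISC_22mth, or 0.276, 0.398, 2.04 and 0.409 CPM. The first old pool stood far above the other 3, and the second old pool was barely above the higher young pool. The fitted fold of 3.59 has an interval from 0.956 to 13.5 (FDR 0.31). The gene entered the test only through ISC_22mth replicate 1, so its presence among the genes tested already required a difference in that pool, whereas the other 9 passed the filter in each of the 4 pools. Summed Paneth cell markers stood apart in the same library, at 2062 CPM against 925, 715 and 800 CPM in the others with all 6 markers tested, and their part in the Nlrc5 value was not tested. Without that library Nlrc5 was no longer among the genes tested, and of the genes that also had their highest value there B2m had a log2 fold change of 0.39 (FDR 0.034), while those of H2-K1 and Tap1 were -0.27 and 0.12.

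Immune cells express class I genes strongly, and most of their defining markers were at or near 0. Of 15 markers of T and intraepithelial lymphocytes 2 were tested, Cd3d, Cd3g, Cd4 and Cd2 had 0 counts in all 4 libraries, and the summed level was 6.07 and 4.90 CPM in ISC_2mth and 6.21 and 5.16 CPM in ISC_22mth, mostly from Itgae. Of 12 macrophage and dendritic cell markers 2 were tested, Itgam and Ccr2, and 7 had 0 counts in all libraries, among them Adgre1, C1qa and Itgax. Their summed level was higher in old ISCs, 20.5 and 22.0 CPM against 10.7 and 13.3 CPM, mostly from Itgam with 148 and 196 counts in ISC_2mth and 254 and 252 in ISC_22mth. Ccr2 had 0 counts in both young pools and 13 and 16 in the old pools. The part of these markers in the levels of the 10 genes was not tested.

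Per kilobase of exon, the levels of the 10 genes spanned several orders of magnitude, with means over the 4 pools from 439 CPM per kb for B2m down to 0.0920 for Nlrc5. The length is that of the merged exons of all annotated transcripts of a gene (860 bases for B2m, 3381 for Psmb8, 3660 for Psmb9). It can differ from the length of the main mRNA, so levels and their order between genes also depend on the annotation. H2-K1 came next after B2m at 21.1 CPM per kb, followed by Psmb10 (10.1), H2-D1 (9.24), Tapbp (3.85), Psmb9 (3.21), Psmb8 (1.63), Tap1 (1.03) and Tap2 (0.393). The ranges over pools of Psmb10 and H2-D1 overlapped, as did those of Tapbp and Psmb9, of Psmb9 and Psmb8, and of Psmb8 and Tap1. Within a library, Psmb9 was above Psmb8 and Psmb8 above Tap1 in each of the 4, whereas the order of Psmb10 and H2-D1 and that of Tapbp and Psmb9 changed between libraries. The steps from B2m to H2-K1, from H2-K1 to Psmb10, from H2-D1 to Tapbp, from Tap1 to Tap2 and from Tap2 to Nlrc5 had no overlap in any pool. The light chain thus stood above the higher heavy chain in each library, 338 to 514 CPM per kb against 17.7 to 24.0. Of the constitutive subunits, Psmb6 had a mean of 10.5, Psmb5 of 4.41 and Psmb7 of 2.07 CPM per kb. In each library, Psmb6 was thus above its inducible counterpart Psmb9 per length, Psmb5 above Psmb8, and Psmb7 below Psmb10. The ratios of Psmb8 to Psmb5 above 1 are of counts and were not scaled by length, and the Psmb5 counts are the least certain.

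**Figure D3:**
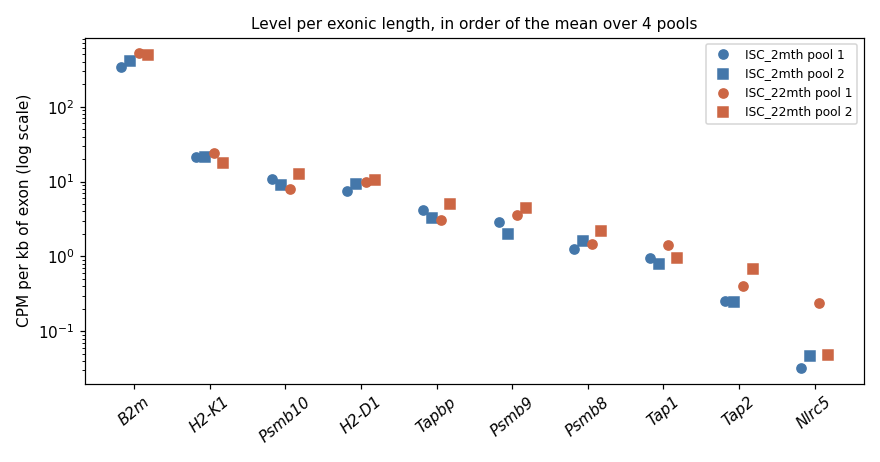
Level of each of the 10 genes in CPM per kb of exon on a log axis, ordered by the mean over pools, with 1 point per ISC_2mth or ISC_22mth pool. B2m lies between 338 and 514 CPM per kb and Nlrc5 between 0.0325 and 0.241, and the points of neighbouring genes from Tapbp to Tap1 overlap.

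The rest of the pathway was followed in 8 lists of 95 genes chosen by symbol, of which 75 were tested. Among them 2 rose and 1 fell at an FDR of 0.05, beside 1.63% of all genes higher and 0.628% lower. Scaled by total counts alone, 0 were higher and 22 lower, where 96 of all genes were higher and 4554 lower. The median log2 fold change was 0.11, 46 genes were above 0 and 29 below. The gene that rose among the 7 genes of peptide loading and trimming was Pdia3, which encodes ERp57, the oxidoreductase that pairs with tapasin in the loading complex. It had 231.4 and 253.6 CPM in ISC_2mth and 342 and 332 CPM in ISC_22mth. The old pools were close to each other and both above the young ones, with a fold of 1.39 (1.18 to 1.63, FDR 0.027). The other 6 genes of that list did not pass, and its median was 0.16.

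Among 11 other subunits of the 20S core, Psma2, an alpha ring subunit found in both kinds of proteasome, rose from 29.4 and 34.8 CPM in ISC_2mth to 47.6 and 48.5 CPM in ISC_22mth. The fold was 1.50 (1.22 to 1.83, FDR 0.031), and 9 of the 11 had log2 fold changes above 0, with a median of 0.11. The part of the summed enterocyte markers (326 and 433 against 818 and 663 CPM, much of it Fabp2) in the values of Pdia3 and Psma2 was not tested. None of 13 tested constitutive counterparts, activators and assembly factors passed in either direction (1 at an unadjusted p under 0.05, beside 16.9% of all genes), and their median was 0.13. Of lowest p among them were the assembly chaperones Psmg2 (120, 123, 133 and 156 counts, log2 fold change 0.47, FDR 0.27) and Psmg4 (0.50, FDR 0.43) and the subunit Psmb6 described above. None of 6 cytosolic peptidases passed, with 2 at an unadjusted p under 0.05, beside 16.9% of all genes. Lap3, an interferon-inducible leucine aminopeptidase, had 378 and 293 counts in ISC_2mth and 456 and 397 in ISC_22mth (0.56, FDR 0.076), Tpp2 had a log2 fold change of 0.38 (FDR 0.13) and Npepps of -0.19 (FDR 0.46).

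Among 12 factors that act on class I promoters, Irf1, an interferon regulatory factor that is itself induced by interferon gamma, fell. It had 16.6 and 18.1 CPM in ISC_2mth and 10.9 and 9.25 CPM in ISC_22mth, both old pools below both young ones, with a fold of 0.582 (0.442 to 0.766, FDR 0.034). Of the 12 factors, 9 had log2 fold changes below 0, and the median was -0.077. The direction of Irf1 was thus opposite to that fitted, with TMM scaling, for 9 of the 10 class I and immunoproteasome genes. Pdia3, Psma2 and Irf1 all missed an FDR of 0.05 with offsets for GC and length (0.11, 0.14 and 0.068), with log2 fold changes of 0.38, 0.44 and -0.72 beside 0.48, 0.58 and -0.78. They also missed it without ISC_2mth replicate 1 (0.31, 0.36 and 0.071), with log2 fold changes of 0.41, 0.47 and -0.84. Pdia3 and Irf1 missed it without ISC_2mth replicate 2 (0.058 and 0.14, with log2 fold changes of 0.54 and -0.72) and Irf1 without ISC_22mth replicate 2 (0.057, log2 fold change -0.67). With DESeq2, Pdia3 alone passed (FDR 0.0058), with Psma2 at 0.05 (log2 fold change 0.58) and Irf1 at 0.095 (-0.78). Scaled by total counts alone, where the median of all genes was -0.50, the log2 fold change of Pdia3 was -0.01, that of Psma2 0.09 and that of Irf1 -1.27 (FDR 7.6e-05).

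Of 14 tested genes of interferon receptors and signalling, 10 had log2 fold changes above 0 and none passed an FDR of 0.05 in edgeR's quasi-likelihood test, with 2 at an unadjusted p under 0.05, beside 16.9% of all genes. Ptpn2, a phosphatase that restrains the pathway, had 333 and 369 counts in ISC_2mth and 443 and 383 in ISC_22mth (log2 fold change 0.45, FDR 0.12). Irf9, an interferon regulatory factor of the type I response, had 110, 110, 142 and 104 counts (0.37, FDR 0.42). For both genes the old pools were the 2 highest in CPM, as for 24.0% of all genes. All 7 interferon genes on the list had 0 counts in all 4 libraries, which allows up to 3 counts, or between 0.199 and 0.246 CPM, for counting error only. A count of 0 in the sorted cells says nothing of interferon made by other cells.

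Of 23 other class I heavy chain and class I-like genes, 12 were tested and none passed an FDR of 0.05 in edgeR's quasi-likelihood test. None passed an unadjusted p of 0.05 in that test either, beside 16.9% of all genes. Fcgrt, the neonatal Fc receptor, which also pairs with B2m, had 31 and 23 counts in ISC_2mth and 13 and 10 in ISC_22mth (log2 fold change -1.01, FDR 0.40). H2-T3, the thymus leukemia antigen bound by CD8 alpha alpha on intraepithelial lymphocytes, had 159, 167, 163 and 169 counts (0.25, FDR 0.55), and H2-M3, which presents formylated peptides, had 13, 17, 27 and 16 (0.73, FDR 0.57). Of the 12, the old pools were the 2 lowest for Fcgrt only, beside 23.6% of all genes, and the 2 highest for H2-T3 and H2-M3, beside 24.0%. Class I genes have near-identical copies, and the stretches these genes share with other transcripts were not measured, so their counts are uncertain.

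**Figure D4:**
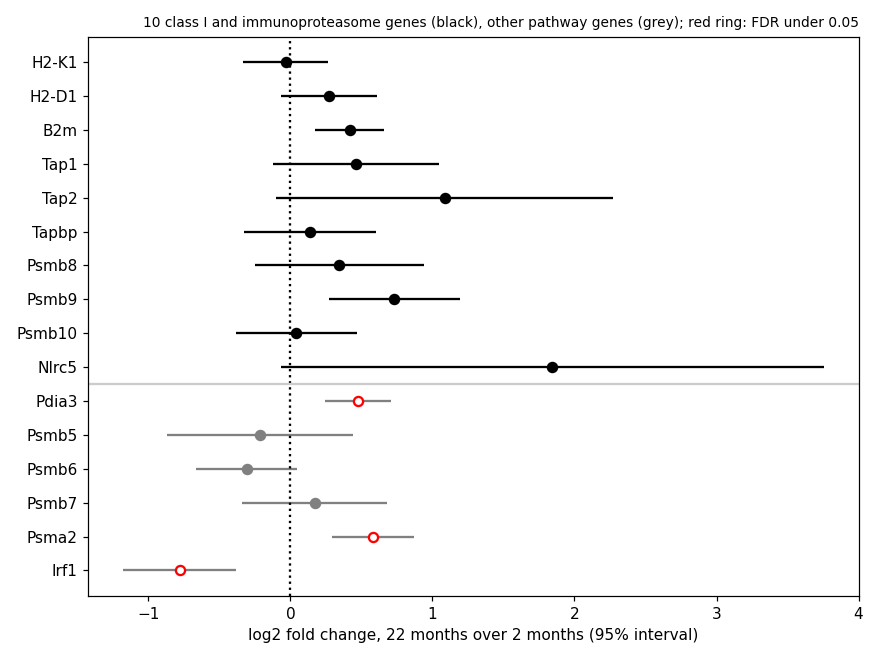
Log2 fold change, old over young, with 95% intervals for the 10 genes (black) and, in grey, for Psmb5, Psmb6, Psmb7, Pdia3, Psma2 and Irf1, with a red ring at an FDR under 0.05. The intervals of Pdia3, Psma2 and Irf1 come from genes at an FDR of 0.027, 0.031 and 0.034, and those of B2m and Psmb9 lie above 0 at an FDR of 0.068 and 0.09.

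The 10 genes also varied among themselves within an age. Between the old pools, the log2 level of the first minus that of the second was 0.44 for H2-K1, 0.60 for Tap1 and 1.98 for Nlrc5, but -0.69 for Tap2, -0.70 for Tapbp, -0.59 for Psmb8 and -0.66 for Psmb10. H2-D1 (-0.10) and B2m (0.07) were nearly level between them, and Psmb9 had -0.34. The median absolute difference over all genes tested was 0.26 between the old pools and 0.22 between the young ones, so 8 of the 10 differed by more than the median gene between old pools, of which 1, Nlrc5, was past the 90th percentile of 0.88. Between the young pools 8 of the 10 were likewise past the median and 0 past the 90th percentile of 0.80.

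The mean profile of the 10 genes, each centred on its own mean log2 level, was -0.22 and -0.22 in ISC_2mth and 0.22 and 0.22 in ISC_22mth. The 10 genes lay at root mean square differences from it between 0.108 (B2m) and 0.808 (Nlrc5). The 5 other tested genes nearest to it were Krcc1 (0.0082), Wdr1 (0.0131), Pyroxd2 (0.0205), Pik3c2a (0.0213) and Gm28988 (0.0216). The equal old values rest on Nlrc5: without it, an alternative chosen after the values were seen, the mean profile was -0.15, -0.20, 0.07 and 0.29, and these 5 genes lay between 0.0779 and 0.0996 from it. The likeness is a description of these values over 4 pools.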

How the data were processed

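RNA of sorted ISCs was sequenced in 4 libraries, 2 per age. The authors checked the reads with FastQC, trimmed them with Trimmomatic (0.30), aligned them with STAR (2.4.2a) to GRCm38 (mm10) and counted reads in exons of GENCODE genes with featureCounts. The authors deposited raw counts per gene, neither normalized nor filtered. RNA had been amplified with SPIA, without molecular identifiers, so the counting errors of ratios and the floors of 3 counts cover counting error only. The strand setting and the treatment of multiply aligned reads were not given in the sources used here.

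The members, the pathway and marker lists and the tests were chosen with earlier results of these data known. The named genes are the 10 members, the 3 constitutive counterparts, of each pathway list the genes with FDR under 0.05 or else at most the 3 of lowest p, 4 label checks (Ptprc, Cd3e, Epcam and Lgr5) and the 5 genes nearest to the mean profile. Of these, 1 gene of the interferon signalling list is not reported here. Genes that exceeded both 5 reads and 1 CPM in 1 pool or more (13692 of 52459) were fitted with edgeR 4.0.16 in R 4.3.3 (TMM, glmQLFit, glmQLFTest, no covariate), with Benjamini-Hochberg adjustment over all genes tested and 95% intervals from the same fit, and the biological coefficient of variation was 0.139. Alternatives were limma 3.58.1 (voom with sample quality weights), DESeq2 1.42.0, edgeR's likelihood ratio test, other scalings and filters, the replicate number as a block, offsets for GC content and exonic length (lowess, span 0.3), and each pool left out in turn, where the lone pool of an age is assumed to vary like the others. Fits were tested on simulated data. Positions, lengths and 50-nt stretches shared between transcripts came from a later GENCODE release on GRCm38, matched by symbol, and promoters from RefSeq on GRCm38.p6.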

Additional observations from a re-analysis of the deposited data

How the results depend on the processing

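The number of all genes with FDR under 0.05 was 309 and was 197 with DESeq2, 611 with the likelihood ratio test, 4650 with total counts, 554 with no filter, 623 with the replicate block, 183 with GC and length offsets, and between 151 and 710 with 1 pool left out. For the 10 genes the count of 0 became 1 with voom and sample quality weights (B2m), 1 with the likelihood ratio test (Psmb9), 1 with total counts (H2-K1, lower, log2 fold change -0.53, FDR 0.01) and 2 with no filter (B2m, Psmb9), and was between 1 and 2 with 1 pool left out. With the replicate number as a block it was 2 (B2m and Psmb9, both FDR 0.024), but same-numbered pools are different animals, no label ties them, and their deviations from the group means did not correlate (r = -0.00015 across 13692 genes). B2m passed in 6 and Psmb9 in 5 of 16 alternatives, with FDR between 0.0072 and 0.69 and between 0.0082 and 0.44. The count of 3 other pathway genes became 1 with DESeq2, 22 with total counts, 0 with offsets, and between 1 and 4 with 1 pool left out. The median log2 fold change of the 10 genes, 0.38, was -0.10 with total counts (0.39 relative to all genes), 0.32 with at least 10 counts in every library, where Nlrc5 was not tested, and between 0.30 and 0.47 with 1 pool left out.

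The direction of some log2 fold changes turned. With total counts they were -0.21 for H2-D1, -0.068 for B2m, -0.037 for Tap1, -0.36 for Tapbp, -0.14 for Psmb8, -0.45 for Psmb10 and -0.014 for Pdia3. With upper quartile scaling Psmb10 had -0.0021, and with offsets H2-K1 had 0.032. With 1 pool left out, the values ran from -0.27 to 0.17 for H2-K1, from -0.26 to 0.45 for Tapbp and from -0.32 to 0.34 for Psmb10, and the direction turned without ISC_22mth replicate 2 in all 3 and without ISC_2mth replicate 2 in Tapbp and Psmb10. The cause of the turns with upper quartile scaling, with offsets or with 1 pool left out was not tested. Tap2, Psmb9, Psma2, Irf1 and the mean ratio of immunoproteasome to constitutive subunits kept their direction in each alternative run, as did Nlrc5 in the 13 in which it was tested. Tap2 and Nlrc5 rest on 2 pools per age, on between 4 and 31 counts per pool, and on old pools that differed (20 and 31 counts, 27 and 5 counts). H2-K1, H2-D1, Tap2, Tapbp and Psmb8 are limited by stretches shared with other genes.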
